A study of Homo sapiens with 12 samples.

Results

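TAF5-depleted HEK293 Flp-In cells that received full-length TAF5 (FL) were compared with depleted cells that did not (siTAF5), gene by gene, in 6 of the 12 libraries of the series, 3 for each group. HEK293 Flp-In cells derive from human embryonic kidney and carry 1 recombination site into which a transgene is placed. The members were chosen by their sample names, and all 32010 genes of the deposited table entered, of which 19424 had enough counts to be tested. Cells of both groups were transfected with an siRNA against TAF5. In the FL group a doxycycline-induced, siRNA-resistant full-length TAF5 was switched on 24 h later, and RNA was taken after 48 h of doxycycline. The other 6 libraries are shown beside the comparison where a level needs a reference: 3 from cells with a non-targeting siRNA (siNT) and 3 from depleted cells that expressed TAF5 lacking exon 8 (ΔE8). All 12 samples are labelled as treated with both siRNA and doxycycline, and the labelled doxycycline dose differs between the FL and the ΔE8 cells. The labels name 1 siRNA against TAF5, do not say which line the siNT and siTAF5 cells were, and do not say whether libraries of a group came from separate cultures. The transgene line and the TAF5 protein therefore cannot be told apart as a source of a difference, and the p-values measure only the spread between these samples, which may be technical.

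TFIID is the complex that recognises core promoters and nucleates the assembly of RNA polymerase II. It consists of TBP, which binds the TATA box, and the TBP-associated factors (TAFs). TAF5 is a scaffold subunit with a WD40 propeller that is present in both lobes of TFIID that hold histone-fold TAFs, and its relative TAF5L serves in the histone acetyltransferase complex SAGA. The study asked if expression of genes depends on exon 8 of TAF5. The comparison described here shows how depleted cells that received full-length TAF5 differed from depleted cells that did not.

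TAF5 (chromosome 10, 103367966 to 103389065, hg38) stood at 6.13, 7.35 and 6.68 CPM in the siTAF5 libraries and at 103, 106 and 107 in the FL libraries. CPM is the estimated count scaled to a common library size. The siNT libraries lay between them at 39.2, 40.5 and 40.2 CPM, so the FL libraries held 2.63-fold the TAF5 RNA of the siNT libraries (edgeR adjusted p = 3.63e-16). TAF5 in FL was 15.6-fold the siTAF5 level (log2 change 3.96, SE 0.044, edgeR adjusted p = 1.21e-22), and ΔE8 stood at 87.6, 87.5 and 88.9 CPM. Library totals ran from 41799164 to 62452619 estimated counts, and the 4 groups lay apart in the plane of the first principal components, which held 58.1% and 29.6% of the variance. Of the HEK293 marker genes, 8 of 8 were detected, with a summed level of 2145 to 2233 CPM in siTAF5 and 2016 to 2076 CPM in FL. The share of counts from mitochondrially encoded genes was 1.01% to 1.11% in siTAF5 and 0.906% to 0.933% in FL.

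At an adjusted p under 0.05, 4745 genes were higher and 4732 lower in FL than in siTAF5 (edgeR quasi-likelihood test, Benjamini-Hochberg over 19424 genes). That is 48.8% of the genes tested, 24.4% in either direction, so a group of genes counts as moving one way only against that background. The libraries did not overlap for 56.3% of genes. Most calls were small: 83.49% were under 1.5-fold, and their median size was 0.27 on the log2 scale. At least 2-fold changes were called for 209 higher genes (1.08%) and 328 lower genes (1.69%), and at least 4-fold changes for 29 and 21. Direction went with level. Among the 4008 genes with an average log2 CPM over 6, 1873 were higher and 996 lower, whereas among the 2995 with an average from 2 to 4, 584 were higher and 1047 lower. Of protein-coding genes over 6, 46.8% were higher and 24.86% lower. For lists of highly expressed genes, such as ribosomal proteins, that is the nearer background. The gene lists below were not compared with genes of like level. Scaling by library totals alone moved the split to 3748 higher and 5788 lower. These are bulk samples without a spike-in: a change is relative to the other genes, and fewer cells of a type and less RNA per cell cannot be told apart.

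**Figure D1:**
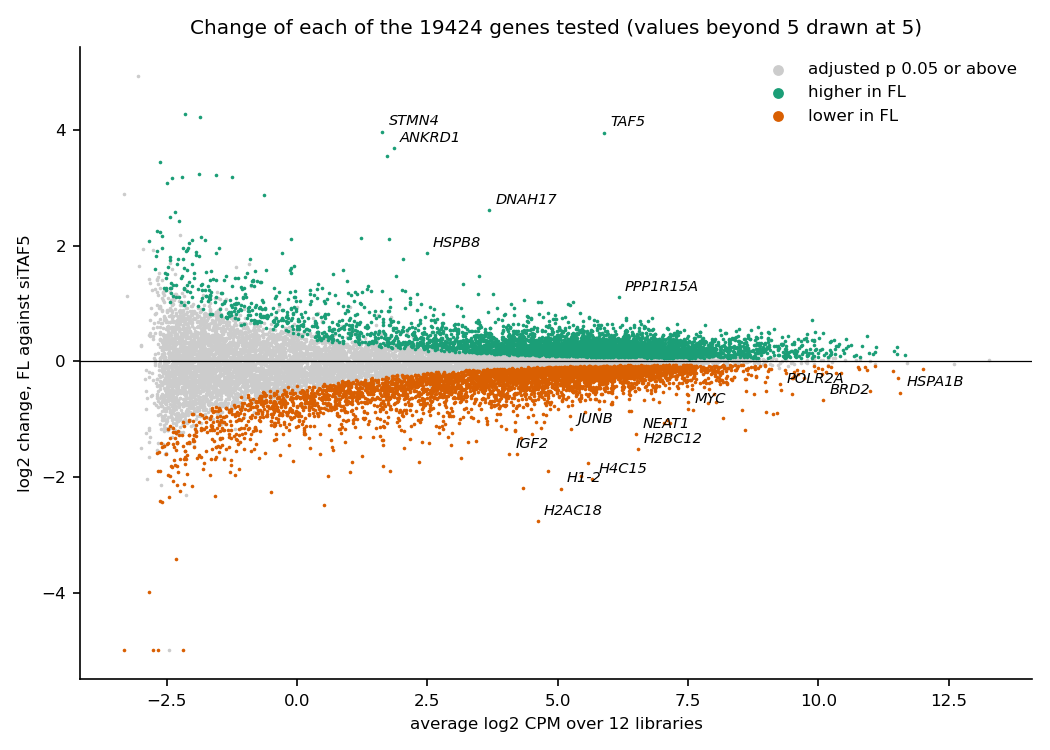
Each point is 1 of the 19424 genes tested, with its average log2 CPM over 12 libraries on the x axis and its log2 change in FL against siTAF5 on the y axis. Green points were called higher (4745 genes) and orange points lower (4732), and named genes are labelled (changes beyond 5 are drawn at 5); higher calls prevail to the right, above an average of 6, and lower calls between 2 and 4.

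Of the 48 gene lists examined, replication-dependent histone genes, which supply histones in S phase, had the lowest median change. Of 62 genes listed, 58 were in the table and 41 had enough counts to be tested: 25 were lower in FL than in siTAF5, 1 was higher and 15 were not called, with a median log2 change of -0.88 against -0.01 over all genes tested. Of the 25, 19 were at least 2-fold lower. The library kit captures polyadenylated RNA, whereas most mRNA of these genes ends in a stem-loop without a poly(A) tail, so the counts cover only the polyadenylated share of it.

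H2AC18, an H2A gene of the cluster on chromosome 1 (chromosome 1, 149842218 to 149842750), stood at 45.2, 43.8 and 46.7 CPM in siTAF5 and at 6.36, 5.81 and 7.93 CPM in FL. Every FL library lay below every siTAF5 library, and also below the siNT libraries at 18.99, 18.9 and 22.2 CPM. It fell 6.77-fold (SE of the log2 change 0.08, edgeR adjusted p = 2.04e-15). H1-2, a linker histone gene on chromosome 6 (chromosome 6, 26055740 to 26056470), fell from 56.4, 55.03 and 55.8 CPM to 13.1, 11.5 and 11.5 CPM, with siNT at 26.2, 25.01 and 25.7. H2BC12, an H2B gene on chromosome 6, went from 139, 142 and 135 to 48.9, 45.1 and 50.9 CPM, a 2.87-fold fall (edgeR adjusted p = 2.17e-16). H2BC21 and H2BC11 fell 3.02-fold and 3.18-fold. Each of these 5 genes was also lower in FL than in siNT (edgeR adjusted p from 1.59e-12 to 5.07e-08), and each was higher in ΔE8 than in FL (H2AC18 by 1.92, H1-2 by 1.67, H2BC11 by 1.52, H2BC12 by 1.30 and H2BC21 by 0.94 on the log2 scale). That did not hold for most of the list. Of the 41 members tested, 14 were lower in FL than in siNT, 3 were higher and 24 were not called, with a median of -0.12. Over all genes that comparison called 26.8% lower and 27.8% higher.

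The fall touched all 5 histone classes: 2 of 4 H1 genes, 7 of 11 H2A, 7 of 11 H2B, 5 of 6 H3 and 4 of 9 H4 genes were lower. On chromosome 1, 8 of 10 members tested were lower and 1 higher, with a median of -1.85. On chromosome 6, 17 of 31 were lower and 0 higher (edgeR adjusted p under 0.05), with a median of -0.80. The single higher member was H2AC20, under 1 CPM in all 6 libraries, at 0.4897, 0.334 and 0.561 CPM in siTAF5 and 0.883, 0.688 and 0.766 in FL (log2 change 0.77, SE 0.25, edgeR adjusted p = 0.0158). Its neighbour H2BC21 was among the genes that fell. The division of reads is uncertain within the near-identical pair of H2AC18 with H2AC19, and likewise for H4C14 with H4C15. The histone pseudogenes H2BC19P and H2BC20P fell as well, from 47 to 12.6 CPM and from 76.7 to 22.6 CPM in group means.

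**Figure D2:**
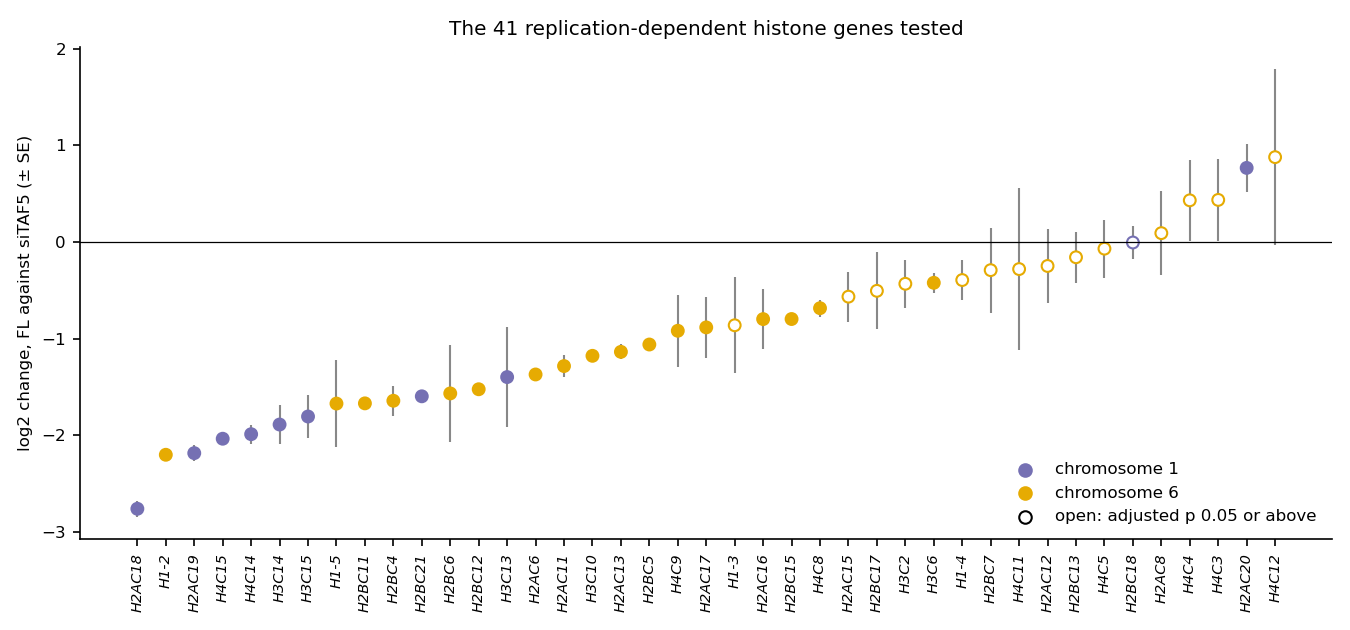
Points show the log2 change in FL against siTAF5 of each of the 41 replication-dependent histone genes tested, in order of size, with bars of 1 SE; purple is chromosome 1, yellow is chromosome 6, and open points had an adjusted p of 0.05 or above. H2AC18 lies lowest at -2.76, and H2AC20 is the only filled point above 0.

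Promoters of 6 histone genes that fell are shown because TFIID meets a gene at its core promoter. Each line holds the 100 bases before the start site, in RefSeq coordinates of GRCh38.p14, 5′ to 3′ on the gene's strand, with TATAAA (the TATA box core) and CCAAT in capitals, on either strand (the reverse of CCAAT reads ATTGG). The windows are chr1:149842751-149842850 (minus strand), chr1:149850961-149851060 (plus strand), chr1:149886683-149886782 (minus strand), chr6:27146859-27146958 (minus strand), chr6:27132796-27132895 (minus strand) and chr6:26056471-26056570 (minus strand).
H2AC18: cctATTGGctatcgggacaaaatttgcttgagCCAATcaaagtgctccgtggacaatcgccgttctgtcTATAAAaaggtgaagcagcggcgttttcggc
H2AC19: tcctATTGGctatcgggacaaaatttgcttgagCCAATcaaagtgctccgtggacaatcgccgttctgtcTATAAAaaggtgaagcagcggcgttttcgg
H2BC21: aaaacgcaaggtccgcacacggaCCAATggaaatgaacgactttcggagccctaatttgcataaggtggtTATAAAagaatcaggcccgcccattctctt
H2BC12: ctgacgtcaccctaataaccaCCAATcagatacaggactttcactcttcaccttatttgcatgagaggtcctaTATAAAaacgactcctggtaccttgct
H2BC11: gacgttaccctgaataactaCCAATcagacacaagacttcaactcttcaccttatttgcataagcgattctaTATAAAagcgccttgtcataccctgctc
H1-2: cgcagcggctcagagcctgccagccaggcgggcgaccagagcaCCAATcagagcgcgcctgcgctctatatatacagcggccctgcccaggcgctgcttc
TATAAA begins 31 bases before the start in H2AC18, 30 in H2AC19 and H2BC21, 27 in H2BC12 and 28 in H2BC11. H1-2 has no exact TATAAA in this window and has CCAAT 57 to 53 bases before the start. The H2AC18 and H2AC19 windows share a run of 99 identical bases.

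Among promoters in the RefSeq table, 12590 belonged to tested genes. TATAAA on the gene's strand, lying 40 to 21 bases before the start, was present in 1.835% of them (231) and in 56.41% of the 39 histone promoters matched. Of the genes that fell at least 2-fold, 16 of 172 had it (9.3%), and 3 of 153 (1.96%) once histone genes were left out: JUNB, PCP4L1 and TNF. Of the genes that rose at least 2-fold, 14 of 113 had it (12.4%). Low expression goes with TATAAA: below an average log2 CPM of 2, the share was 3.59% of all promoters, 10% of those of genes that rose at least 2-fold and 1.56% of those that fell at least 2-fold without histone genes. Above 2, the shares were 1.304% of all promoters, 30.77% of the 13 that rose (4 genes) and 4% of the 25 that fell (1 gene). CCAAT, searched on both strands from 250 bases before to 50 after the start, was present in 82.05% of histone promoters and 36.38% of the promoters of all genes tested. A match is a description of the letters and not evidence of binding.

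The 14 TATAAA genes that rose at least 2-fold included 4 with group means over 5 CPM in FL. ANXA1, a calcium-dependent phospholipid-binding protein (chromosome 9, 73151865 to 73170393), stood at 5.62, 5.296 and 5.09 CPM in siTAF5 and 13.1, 12.4 and 14.9 in FL. DLEU2, a host RNA of the miR-15a and miR-16-1 precursors (chromosome 13, 49956670 to 50125720), stood at 6.32, 7.27 and 6.47 CPM in siTAF5 and 18.1, 17.9 and 19.97 in FL. CGA, the common subunit of the pituitary and placental glycoprotein hormones, stood at 1.597, 1.95 and 1.72 CPM in siTAF5 and 6.02, 5.31 and 6.73 in FL. PPP1R15A, which directs dephosphorylation of the translation factor eIF2, stood at 46.7, 46.2 and 44.98 CPM in siTAF5 and 99.4, 94.6 and 104 in FL, a 2.16-fold rise (edgeR adjusted p = 2.04e-15). For each of the 4, the FL libraries lay above all siTAF5 libraries. Their upstream windows are chr9:73151765-73151864 (plus strand), chr13:50125542-50125641 (minus strand), chr6:87095107-87095206 (minus strand) and chr19:48872321-48872420 (plus strand), shown to set the TATA positions beside those of the histone genes, with TATAAA in capitals.
ANXA1: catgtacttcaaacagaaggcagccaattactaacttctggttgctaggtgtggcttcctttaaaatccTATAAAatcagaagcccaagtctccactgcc
DLEU2: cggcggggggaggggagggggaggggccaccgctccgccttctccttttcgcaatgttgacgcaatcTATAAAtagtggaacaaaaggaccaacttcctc
CGA: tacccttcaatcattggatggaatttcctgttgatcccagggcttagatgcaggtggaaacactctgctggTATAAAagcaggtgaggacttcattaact
PPP1R15A: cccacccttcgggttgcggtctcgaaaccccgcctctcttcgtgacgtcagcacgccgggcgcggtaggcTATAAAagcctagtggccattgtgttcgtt
TATAAA begins 31, 33, 29 and 30 bases before the start in these 4. The RefSeq start of DLEU2 lies 179 bases from the start in the deposited table.

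Other histone genes and their partners moved less. Of 12 replication-independent histone genes, 6 were lower and 2 higher. H3-3A, which encodes the variant H3.3, fell 1.31-fold (edgeR adjusted p = 2.24e-11). H2AZ2 rose 1.17-fold. Of 17 factors that process histone pre-mRNA, 7 were higher and 3 lower. CASP8AP2 (FLASH), which acts in histone mRNA 3′ end formation, rose from 64.1 to 81.4 CPM.

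Within TFIID itself, 5 of the 16 other subunit genes were higher in FL than in siTAF5, 4 were lower and 7 were not called. TAF12, a histone-fold subunit that pairs with TAF4 (chromosome 1, 28587829 to 28648291), stood at 33.04, 31.6 and 32.1 CPM in siTAF5 and 21, 20.1 and 21.8 in FL. It fell 1.54-fold (log2 change -0.62, SE 0.042, edgeR adjusted p = 3.4e-10) and stayed above siNT at 17.7, 16.8 and 16.8 (edgeR adjusted p = 1.26e-05). TAF4 fell from 59.3, 57.9 and 58.3 to 49.6, 48.9 and 49.8 CPM, with siNT at 48.4, 48.9 and 47.6 CPM (FL against siNT, log2 difference 0.03, SE 0.03, edgeR adjusted p = 0.357). TAF6 and TAF4B fell 1.12-fold and 1.19-fold. TAF8, which brings TAF10 into the core complex, rose from 40.2, 41.03 and 41.02 to 47.7, 48.2 and 48.8 CPM (edgeR adjusted p = 2.74e-05). TAF2, TAF3, TAF9 and TAF13 rose by at most 1.11-fold, and the calls of TAF9 and TAF13 were lost when scaled by library totals or without FL replicate 3 (edgeR adjusted p from 0.0774 to 0.166), and that of TAF13 also without siTAF5 replicate 1 (edgeR adjusted p = 0.0503). TBP, at 29.6, 30.7 and 29.6 CPM in siTAF5 and 30.5, 31.6 and 29.6 in FL, had a log2 difference of 0.03 (SE 0.039, edgeR adjusted p = 0.606). TAF1, TAF7, TAF9B, TAF10, TAF11 and TAF15 were also not called, with log2 differences from -0.10 to 0.06. TAF1 and TAF11 passed the test as lower under 6 and 8 of the 15 alternative settings.

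POLR2A, the catalytic subunit of RNA polymerase II (chromosome 17, 7484366 to 7514616), stood at 709.5, 694 and 717 CPM in siTAF5 and at 509.6, 505 and 498 CPM in FL, with no overlap. It fell 1.403-fold (SE 0.023, edgeR adjusted p = 2.47e-12) and was still 1.47-fold the siNT level of 338, 348 and 341 CPM. Of the 29 genes for RNA polymerase II and general factors, 13 were higher and 7 lower. GTF2A1, a subunit of TFIIA, fell 1.24-fold and the TFIIH helicase gene ERCC2 fell 1.24-fold, whereas the TFIIH subunit gene GTF2H1 rose 1.21-fold. Among 32 Mediator genes, 13 were higher and 6 lower. The Mediator kinase gene CDK19 fell from 47.05 to 35.01 CPM, and MED1, MED8, MED13 and MED27 rose between 1.21-fold and 1.26-fold.

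Among 30 elongation and pausing factors, 18 were higher and 5 lower. HEXIM1 and LARP7 belong to the 7SK particle that holds the elongation kinase P-TEFb inactive, and they moved in opposite directions. HEXIM1 fell from 87.6, 84.03 and 94.6 to 60.01, 58.6 and 63.6 CPM (edgeR adjusted p = 3.45e-10), and LARP7 rose from 36.5, 35.6 and 34.5 to 51.4, 51.3 and 55.03 CPM (edgeR adjusted p = 7.95e-10). The FACT subunit genes SSRP1 and SUPT16H, whose products chaperone histones ahead of the polymerase, rose 1.21-fold and 1.15-fold. BRD2, a bromodomain reader of acetylated histones outside that list (chromosome 6, 32968594 to 32981505), fell from 1304, 1290 and 1294 to 819.9, 814 and 801 CPM. The FL libraries lay below the siNT libraries at 982, 959.5 and 976 CPM, and ΔE8 at 1290, 1318 and 1283 overlapped siTAF5 (ΔE8 against FL, log2 difference 0.68, edgeR adjusted p = 3.81e-15).

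Of 34 genes for the coactivator complexes SAGA, ATAC and TIP60, 14 were higher and 3 lower. The TIP60 acetyltransferase gene KAT5 rose from 22.4, 23.3 and 22.6 to 38.5, 36.3 and 38.5 CPM and its partner gene ING3 from 21.3, 20.4 and 20.7 to 37.5, 36.9 and 37.9 CPM, a 1.798-fold rise (edgeR adjusted p = 1.78e-12). EPC1, another TIP60 subunit gene, rose 1.27-fold. TAF5L rose 1.19-fold, from 73.4 to 87.2 CPM.

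**Figure D3:**
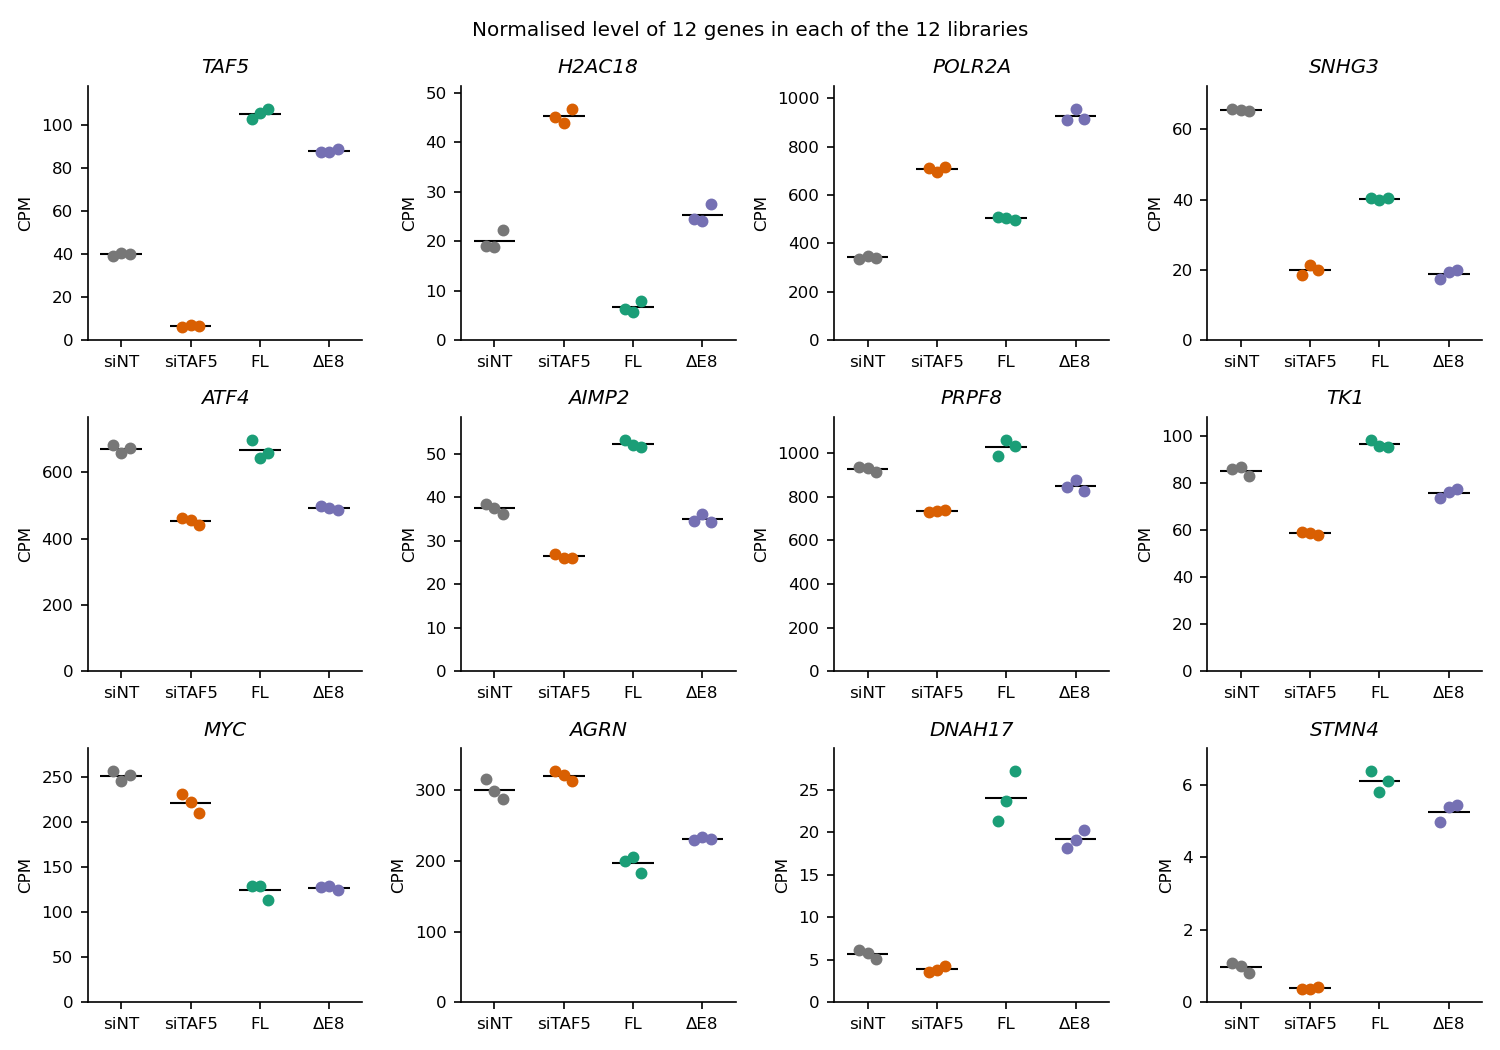
Normalised levels (CPM, y axis from 0) of 12 genes in all 12 libraries; each point is a library, black bars are group means, and each gene has its own scale. TAF5 shows the knockdown and the add-back; H2AC18, POLR2A and SNHG3 show FL between or beyond siTAF5 and siNT; MYC, AGRN, DNAH17 and STMN4 show FL libraries apart from both siTAF5 and siNT.

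Genes that make and assemble ribosomes were mostly higher in FL, where 46.8% of protein-coding genes with an average log2 CPM over 6 were higher. Ribosome biogenesis factors counted 50 higher and 2 lower of 58 tested, with a median log2 change of 0.24. UTP14A, a factor of the small subunit processome, rose from 47.7, 45.2 and 46.6 to 71.7, 71.5 and 73.3 CPM (1.55-fold, edgeR adjusted p = 6.7e-12) and stood above siNT at 37.8, 37.5 and 40.5 CPM. RRS1, RRP12, DDX56 and NOP14 rose between 1.3-fold and 1.44-fold. Cytosolic ribosomal protein genes counted 51 higher and 7 lower of 79, with a median of 0.12. RPSA, a protein of the small subunit, rose from 785, 778 and 796 to 1140, 1116 and 1109 CPM, RPS23 from 656 to 863 CPM and RPL10 from 870.5 to 1153 CPM in group means. Against siNT, 64 of the 79 were still lower in FL and 3 higher, where 26.8% of all genes were lower and 27.8% higher. Processed pseudogenes share sequence with ribosomal protein genes, so their counts may be divided among copies.

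E-box letters CACGTG, the palindrome bound by MYC and its relatives, were present on either strand in 46% of 50 biogenesis promoters (250 bases before to 50 after the start), against 9.722% of the promoters of tested genes and 7.435% of all promoters in the table. Cytosolic ribosomal protein promoters had it in 4.76%. By direction the shares were close, at 11.52% of the promoters of higher genes and 8.862% of those of lower genes. The promoters of 3 biogenesis genes that rose and have the letters close to the start are shown, with CACGTG in capitals: NAT10, an RNA acetyltransferase, at chr11:34105529-34105628 (plus strand), NOP10, an H/ACA particle protein, at chr15:34343137-34343236 (minus strand), and UTP20, a processome factor, at chr12:101280005-101280104 (plus strand).
NAT10: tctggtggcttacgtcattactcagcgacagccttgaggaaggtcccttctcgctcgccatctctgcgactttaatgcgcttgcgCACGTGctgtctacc
NOP10: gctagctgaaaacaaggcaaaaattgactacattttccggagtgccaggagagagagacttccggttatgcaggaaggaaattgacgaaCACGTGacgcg
UTP20: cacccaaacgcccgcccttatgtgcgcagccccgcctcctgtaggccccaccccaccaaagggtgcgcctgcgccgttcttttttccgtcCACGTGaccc
NAT10 stood at 86.7, 84.2 and 84.6 CPM in siTAF5 and 96.8, 95.7 and 94.6 in FL (log2 change 0.17, edgeR adjusted p = 3.43e-05), NOP10 at 53.05, 50.1 and 49.5 in siTAF5 and 56.4, 51.3 and 56.9 in FL (log2 change 0.11, edgeR adjusted p = 0.0405), and UTP20 at 77.1, 77.7 and 79.7 in siTAF5 and 93.3, 98.6 and 106 in FL (log2 change 0.34, edgeR adjusted p = 2.46e-07).

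MYC itself (chromosome 8, 127735434 to 127742951) went the other way. It stood at 231, 222 and 211 CPM in siTAF5 and 129, 129.7 and 114 in FL, a 1.78-fold fall (edgeR adjusted p = 2.92e-12), and siNT stood highest at 257, 246 and 252 CPM. In ΔE8 it was 128, 129 and 125 CPM (against FL, log2 difference 0.03, SE 0.041, edgeR adjusted p = 0.567). Of the 13 genes of the MYC, MAX and MXD network, 9 were lower and 4 higher. MYCL fell 1.68-fold, whereas MLX and MGA, partners on the same DNA element, rose 1.26-fold and 1.31-fold.

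Small nucleolar RNA host genes counted 15 higher and 2 lower of 25. SNHG3 (chromosome 1, 28505980 to 28510892) stood at 18.7, 21.6 and 19.97 CPM in siTAF5 and 40.4, 39.9 and 40.6 in FL. It rose 2.002-fold (SE 0.047, edgeR adjusted p = 1.96e-12) and remained below siNT at 65.8, 65.5 and 65.3 CPM. ΔE8 stood at 17.6, 19.4 and 19.96 CPM, below FL (edgeR adjusted p = 2.62e-12). DANCR rose from 33.6 to 54.4 CPM, where its log2 difference from siNT was -0.05 (SE 0.032, edgeR adjusted p = 0.157). SNHG29, SNHG32 and SNHG8 rose 1.43-fold, 1.39-fold and 1.401-fold.

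The RNA polymerase I and III machinery counted 24 higher and 4 lower of 36. POLR3C, a subunit of polymerase III, rose 1.32-fold, and TAF1D, a subunit of the polymerase I selectivity factor, rose from 33.01 to 45.8 CPM. POLR3GL, which replaces POLR3G in another form of polymerase III, fell 1.55-fold (edgeR adjusted p = 5.77e-09). Translation factors counted 34 higher and 3 lower of 47. EIF1, which helps select the start codon, rose 1.36-fold, and EEF1D, an exchange factor of elongation, rose 1.32-fold. EIF4A2 fell 1.24-fold. Mitochondrial ribosomal proteins counted 46 higher and 8 lower of 76, led by MRPL48, which rose from 15.1, 15.3 and 15.6 to 27.1, 25.7 and 26.6 CPM.

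Aminoacyl-tRNA synthetases and their scaffold counted 23 higher and 0 lower of 29 (edgeR adjusted p under 0.05), with a median log2 change of 0.27. AIMP2, a scaffold of the multi-synthetase complex (chromosome 7, 6009255 to 6023834), stood at 26.99, 26.1 and 26.1 CPM in siTAF5 and 53.1, 51.9 and 51.6 in FL. It rose 1.98-fold (SE 0.035, edgeR adjusted p = 4.71e-14) and stood above siNT at 38.5, 37.6 and 36.2 CPM. MARS1, TARS1 and NARS1 rose 1.41-fold, 1.36-fold and 1.36-fold.

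ATF4, the transcription factor of the integrated stress response (chromosome 22, 39519695 to 39522683), stood at 463, 457 and 441 CPM in siTAF5 and 697, 643 and 657 in FL, a 1.47-fold rise (edgeR adjusted p = 4.54e-12). The siNT libraries overlapped the FL libraries at 682, 658 and 673 CPM (log2 difference -0.01, SE 0.027). Of 34 genes of the ATF4 and amino acid response, 20 were higher and 4 lower. SLC7A11, the cystine importer, rose from 16.8, 17.1 and 17.2 to 34.1, 36.5 and 33.7 CPM. PSAT1, of serine synthesis, rose 1.42-fold, and SLC7A5, the large neutral amino acid transporter, rose 1.37-fold. ASNS, asparagine synthetase, went from 166, 164 and 163 to 248, 239.8 and 218 CPM (log2 change 0.52, edgeR adjusted p = 5.51e-10). For other members the log2 difference was 0.06 for ATF3, 0.07 for TRIB3 and 0.03 for CEBPG, and these 3 were not called. DDIT4, an inhibitor of mTORC1 signalling, fell from 263, 246 and 237 to 159.9, 137 and 118 CPM (edgeR adjusted p = 3.78e-09).

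PPP1R15A differed from these in its reference levels. Its siNT libraries stood at 41.1, 40.2 and 40.1 CPM, so FL was 2.45-fold siNT (edgeR adjusted p = 3.93e-16), and ΔE8 stood at 103, 104 and 105 CPM, with a log2 difference from FL of 0.07 (SE 0.03, edgeR adjusted p = 0.0849).

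The letters TGATGNAA, a composite element bound by ATF4 with C/EBP partners, were searched on both strands of the same 300-base windows. They were present in 30.43% of 23 synthetase promoters and 20.69% of 29 ATF4-list promoters, against 1.652% of the promoters of tested genes. The ATF4 list was drawn up as genes of that response, so its share is not a finding of this comparison. By direction, the letters were in 1.839% of the promoters of higher genes and 1.363% of those of lower genes. ASNS, at chr7:97872409-97872508 (minus strand), has a match 68 to 61 bases before the start, and IARS1, at chr9:92293698-92293797 (minus strand), has a match on the other strand 13 to 6 bases before it. Matches are in capitals, and the RefSeq starts lie 134 and 157 bases from those of the deposited table.
ASNS: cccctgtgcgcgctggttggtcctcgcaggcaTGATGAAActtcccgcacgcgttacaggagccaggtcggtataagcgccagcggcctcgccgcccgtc
IARS1: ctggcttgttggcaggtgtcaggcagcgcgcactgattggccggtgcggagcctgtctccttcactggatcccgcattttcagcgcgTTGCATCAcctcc
IARS1, isoleucyl-tRNA synthetase, stood at 413, 415 and 424 CPM in siTAF5 and 484, 486 and 481 in FL (log2 change 0.21, SE 0.022, edgeR adjusted p = 1.35e-07).

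Splicing, folding and degradation machinery was higher in FL in most members. Of all protein-coding genes 29.96% were higher, and of those with an average log2 CPM over 6, 46.8% were. The lists were not compared with genes of like level. SR proteins and hnRNPs counted 40 higher and 1 lower of 45, and spliceosomal snRNP proteins 40 higher and 0 lower of 51 (edgeR adjusted p under 0.05), with medians of 0.28 and 0.25. HNRNPM stood at 397, 385 and 392 CPM in siTAF5 and 587, 573 and 605 in FL, and siNT stood lowest at 333, 349 and 336. HNRNPA1, whose reads may be divided with its processed pseudogenes, had the largest gain in CPM among the genes called, from 1720, 1709 and 1647 to 2379, 2235 and 2279 CPM, with siNT at 2176, 2187 and 2246. PTBP2, a repressor of neuronal exons, rose 1.71-fold, and PRPF8, the core of the spliceosome, rose 1.396-fold. The ETS letters CCGGAAGT were searched on both strands of the 300-base windows. They were present in 31.82% of snRNP promoters and 22.58% of proteasome promoters, against 7.99% of the promoters of tested genes. By direction, the shares were 11.9% for higher genes and 5.276% for lower genes. For genes at least 2-fold higher or lower they were 1.77% and 2.326%. Shares of these letters were not compared within levels.

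Proteasome subunits counted 32 higher and 1 lower of 36, with a median of 0.27. PSMC2, an ATPase of the regulatory particle, stood at 136, 131 and 135 CPM in siTAF5 and 178, 178 and 185 in FL. The FL libraries lay above siNT at 125, 127 and 127 CPM (log2 difference 0.51, edgeR adjusted p = 4.58e-12), and the list's median against siNT was 0.30. ΔE8 cells showed a like rise: against siTAF5, 34 of the 36 were higher and 1 lower, with a median of 0.21. ΔE8 against siTAF5, which shares the siTAF5 libraries with FL against siTAF5, called 3662 of 14637 protein-coding genes higher. The cytosolic chaperonin TRiC and prefoldin counted 12 higher and 0 lower of 14 (edgeR adjusted p under 0.05), with CCT2 and CCT6A up 1.31-fold and 1.28-fold.

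Heat shock chaperones counted 23 higher and 4 lower of 32. STIP1, the HSP70 to HSP90 adaptor, rose 1.34-fold and HSPH1 rose 1.47-fold. HSPA1B, an inducible HSP70 gene (chromosome 6, 31827738 to 31830254), had the largest loss in CPM of all genes called, from 3599, 3572 and 3603 to 2439, 2390 and 2593 CPM (edgeR adjusted p = 1.14e-12). The siNT libraries lay at 2512, 2488 and 2532 CPM and overlapped FL. HSPA1A is nearly identical to HSPA1B, so the division of reads between them is uncertain. Nuclear transport and pore genes counted 33 higher and 4 lower of 45, among them the importin KPNB1 and the exportin CSE1L, which rose 1.33-fold and 1.29-fold.

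**Figure D4:**
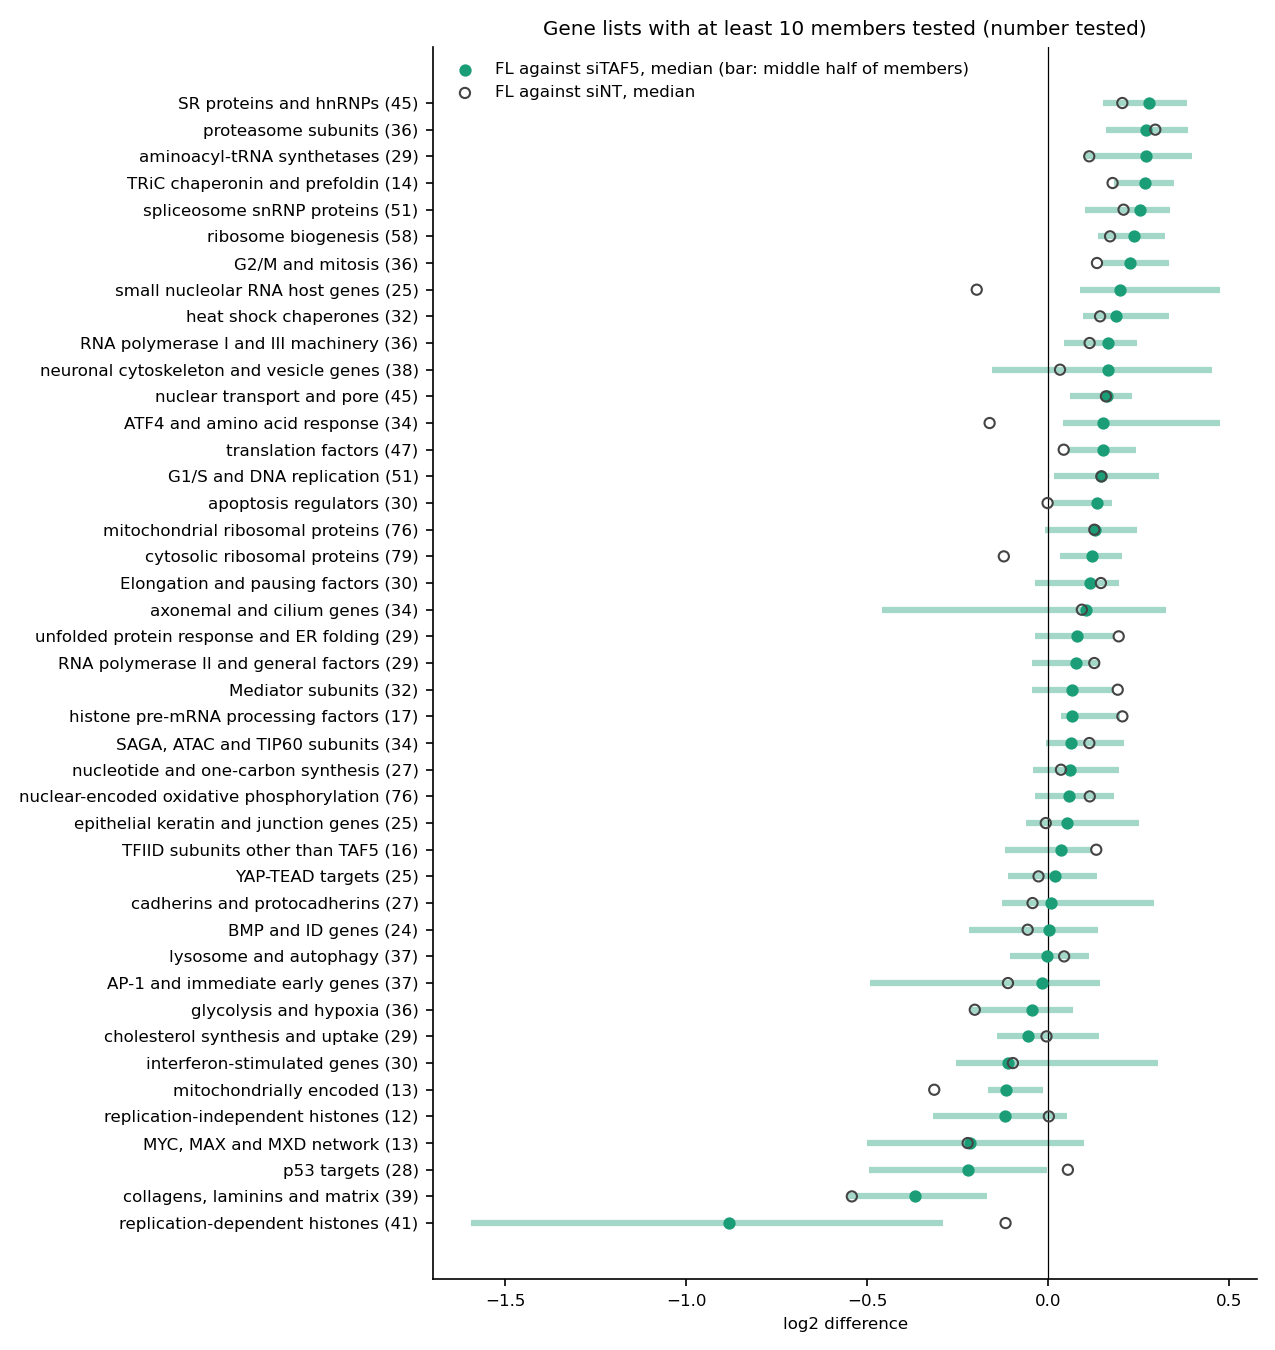
Filled green points are medians of the log2 change in FL against siTAF5 over the tested members of each gene list with at least 10 members, bars span the interquartile range of the members, and open circles are medians of FL against siNT; both share the FL libraries. Replication-dependent histones (-0.88) and matrix genes (-0.37) lie farthest to the left, and SR proteins and hnRNPs (0.28) farthest to the right.

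Cell cycle genes leaned higher, where 29.96% of all protein-coding genes, and 46.8% of those with an average log2 CPM over 6, were higher. Genes of G1/S and DNA replication counted 35 higher and 6 lower of 51, and genes of G2/M and mitosis 30 higher and 3 lower of 36, with medians of 0.15 and 0.23. TK1, thymidine kinase (chromosome 17, 78174091 to 78187233), rose from 59.1, 58.5 and 57.9 to 98.1, 95.7 and 95.1 CPM, above siNT at 85.7, 86.5 and 82.9 CPM. POLA1 of the primase complex and the replication kinase gene CDC7 rose 1.49-fold and 1.501-fold. Of the mitotic genes, the separase gene ESPL1 rose 1.43-fold, TTK 1.38-fold, UBE2C 1.36-fold, FOXM1 1.28-fold and CCNB1 1.26-fold. In the polyadenylated RNA counted here, most called replication genes and most called replication-dependent histone genes, both used in S phase, moved in opposite directions. For the histone genes that RNA is only the polyadenylated share, so their total mRNA was not measured.

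Targets of p53, the DNA damage and stress regulator, counted 16 lower and 6 higher of 28, with a median of -0.22. CDKN1A, the p21 inhibitor of cyclin-dependent kinases (chromosome 6, 36676460 to 36687337), fell from 139, 135 and 133 to 94.9, 90.6 and 93.6 CPM, and siNT stood at 96.3, 90.3 and 92.2 CPM (FL against siNT, log2 difference 0.00, SE 0.03). TP53INP1 fell 1.68-fold, FDXR 1.53-fold and ZMAT3 1.47-fold. Apoptosis regulators counted 18 higher and 4 lower of 30, and the BH3-only genes among the named ones did not move together. PMAIP1 (NOXA) rose from 233, 248 and 231 to 332, 327 and 345 CPM. BMF fell from 22.2, 22.3 and 22.7 to 12.6, 12.1 and 12.1 CPM and BBC3 (PUMA) from 29.8, 27.2 and 29.7 to 19.3, 18.7 and 16.03 CPM, both also below siNT (edgeR adjusted p = 4.74e-11 and 3.27e-08).

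Genes of collagens, laminins and other matrix proteins counted 30 lower and 1 higher of 39, with a median of -0.37. AGRN, the basement membrane proteoglycan agrin (chromosome 1, 1020120 to 1056118), stood at 327, 321 and 313 CPM in siTAF5 and 200.4, 205 and 183 in FL, with siNT at 316, 299 and 287 CPM. FN1, fibronectin, stood at 151, 154 and 150.1 CPM in siTAF5 and 93.7, 98.05 and 89.1 in FL, with siNT at 136, 135 and 132. For both, every FL library lay below every siTAF5 and siNT library. COL4A5, COL13A1 and the perlecan gene HSPG2 fell 1.84-fold, 2.35-fold and 1.67-fold (edgeR adjusted p from 8.52e-13 to 1.09e-10). Against siNT, 35 of the 39 were lower in FL and 0 higher, with a median of -0.54. Over all genes that comparison called 26.8% lower. ΔE8 cells showed a like fall: against siTAF5, 33 of the 39 were lower and 0 higher (edgeR adjusted p under 0.05), with a median of -0.45. ΔE8 against siTAF5, which shares the siTAF5 libraries, called 3599 of 14637 protein-coding genes lower. The list's median in ΔE8 against FL was -0.01. The fibroblast markers, which include collagen genes, summed to 13.2 to 13.8 CPM in siTAF5 and 10.7 to 12.2 CPM in FL, and 5 of 8 stayed under 1 CPM in all 6 libraries.

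Signalling and stress genes did not share a direction as lists. AP-1 and immediate early genes counted 17 lower and 9 higher of 37. The Jun family genes JUN, JUNB and JUND fell 1.43-fold, 2.25-fold and 2.02-fold, and JUNB went from 55.99, 53.1 and 52.2 to 24.6, 23.3 and 23.5 CPM with siNT between them at 38.3, 32.6 and 34.4. Glycolysis and hypoxia genes counted 15 lower and 8 higher of 36. Their log2 changes ran from -5.61 to 0.25, and 1 member was called at least 2-fold lower. NDRG1, a gene induced by hypoxia and differentiation (chromosome 8, 133237175 to 133302022), fell from 388, 377 and 341 to 209.5, 185 and 168 CPM, and its siNT libraries were near siTAF5 at 370.4, 359.7 and 359 CPM. ENO1, enolase, rose 1.19-fold. SAT1, which acetylates polyamines, and TSC22D3 (GILZ), a glucocorticoid-induced leucine zipper, fell 1.86-fold and 1.88-fold (edgeR adjusted p = 2.01e-14 and 4.6e-10). IGF2, the fetal growth factor, fell from 29.02, 27.5 and 25.1 to 9.66, 9.01 and 7.89 CPM, below siNT at 16.6, 14.6 and 14.2.

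Lysosome and autophagy genes counted 13 lower and 10 higher of 37, among them the hydrolase genes GLA and GAA, which fell 1.64-fold and 1.59-fold. Cholesterol genes counted 13 lower and 8 higher of 29: INSIG1 fell 1.47-fold and TM7SF2 1.66-fold, and SREBF1 rose 1.29-fold. Nuclear-encoded oxidative phosphorylation counted 36 higher and 13 lower of 76, whereas mitochondrially encoded genes counted 6 lower and 0 higher of 13 (edgeR adjusted p under 0.05). Without siTAF5 replicate 1, MT-CO2, MT-ND4L and MT-ND3 lost the call (edgeR adjusted p = 0.063, 0.0772 and 0.0993), MT-CO1 and MT-CO3 kept it, and the sixth, MT-ND4, was not examined in that way. Without FL replicate 1, MT-ND4L and MT-ND3 lost it (edgeR adjusted p = 0.0586 and 0.0975), as did MT-ND3 without siTAF5 replicate 2 (edgeR adjusted p = 0.0755). MT-CO1, a subunit of cytochrome c oxidase, fell from 3264, 3000 and 3084 to 2516, 2594 and 2569 CPM. In the remaining lists, interferon-stimulated genes counted 7 higher and 10 lower of 30, nucleotide synthesis 13 and 6 of 27, the unfolded protein response 15 and 5 of 29, cadherins 7 and 7 of 27, keratin and junction genes 8 and 4 of 25, axonemal genes 11 and 10 of 34, YAP-TEAD targets 6 and 4 of 25, BMP and ID genes 7 and 9 of 24, and neuronal cytoskeleton and vesicle genes 17 and 10 of 38. Over all genes tested, 24.4% were higher and 24.4% lower, and several of these lists lay near that, such as cadherins at 25.93% and 25.93%. Others had larger higher shares: 51.72% for the unfolded protein response, 48.15% for nucleotide synthesis and 44.74% for the neuronal list. In the neuronal list 6 members were at least 2-fold higher and 1 at least 2-fold lower, against 1.08% and 1.69% of all genes.

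Some genes rose in FL to levels well above siNT, and stood as high or nearly so in ΔE8. DNAH17, an axonemal dynein heavy chain (chromosome 17, 78423697 to 78577396), stood at 3.598, 3.82 and 4.26 CPM in siTAF5, 21.4, 23.7 and 27.2 in FL, 6.11, 5.82 and 5.15 in siNT and 18.2, 19.1 and 20.3 in ΔE8. STMN4, a neuronal stathmin that binds tubulin (chromosome 8, 27235308 to 27258420), stood at 0.362, 0.369 and 0.421 CPM in siTAF5, 6.38, 5.81 and 6.101 in FL, 1.09, 1.01 and 0.815 in siNT and 4.97, 5.38 and 5.44 in ΔE8. ANKRD1, a muscle ankyrin repeat protein and YAP-TEAD target (chromosome 10, 90912096 to 90921087), stood at 0.532, 0.528 and 0.632 CPM in siTAF5, 6.97, 6.12 and 9.07 in FL, 0.626, 0.694 and 0.4399 in siNT and 6.27, 5.74 and 7.34 in ΔE8. In all 3, the FL and ΔE8 libraries lay above the siTAF5 and siNT libraries. The rises in FL against siTAF5 were 6.13-fold, 15.8-fold and 12.98-fold (edgeR adjusted p = 2.62e-14, 2.01e-14 and 2.74e-12). ΔE8 against FL gave log2 differences of -0.32 (adjusted p = 0.00151) for DNAH17, -0.22 (0.0676) for STMN4 and -0.20 (0.228) for ANKRD1 in the same edgeR model. HSPB8, a small heat shock protein, had the same order of groups, with means of 2.52, 9.24, 3.04 and 8.03 CPM. XRCC6P1, a pseudogene of the DNA repair gene XRCC6 that was chosen after its values were seen, had means of 0.584, 6.83, 0.941 and 5.32 CPM, and its reads may be shared with copies of that gene. In these genes the transgene line and TAF5 cannot be told apart, as said for all differences.

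In other genes FL and ΔE8, which were induced with different doses of doxycycline, differed. ANXA1, at 13.1, 12.4 and 14.9 CPM in FL, stood at 6.597, 6.09 and 6.46 in ΔE8 and 10.4, 11.8 and 11.6 in siNT (ΔE8 against FL, log2 difference -1.07, edgeR adjusted p = 1.44e-09). GLYCTK, glycerate kinase, rose from 2.68, 2.45 and 2.07 to 5.45, 5.79 and 5.68 CPM and stood at 2.27, 2.81 and 2.75 in ΔE8 (edgeR adjusted p = 6.38e-08). GSTP1, a glutathione transferase, rose from 16.4, 15.8 and 16.4 to 34.4, 32.1 and 32.9 CPM and stood at 20.3, 19.9 and 20.1 in ΔE8 (edgeR adjusted p = 3.55e-11). DLEU2, PRR22, SLC43A2, DERL3, UBXN8, TMEM145 and SLC7A11 rose at least 2-fold in FL and were lower in ΔE8 than in FL, with log2 differences of -0.72 to -0.89. PCDH19, a protocadherin of the X chromosome, rose from 11.8, 11.7 and 12.97 to 20.9, 22.04 and 21.3 CPM and stood lowest of the 4 groups in ΔE8 at 7.43, 9.12 and 7.41 CPM. Over all genes, ΔE8 against FL called 17.3% higher and 19.7% lower. That comparison shares the FL libraries with FL against siTAF5, so only each comparison's own values are given.

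Noncoding genes, most of which had low levels, leaned lower. Of 3306 long noncoding RNA genes tested, 231 were higher and 648 lower, against 4385 and 3941 of 14637 protein-coding genes. Genes named as antisense counted 43 higher and 185 lower of 623, with a median of -0.22. Because the balance of lower to higher calls varied with level, the kinds were also set side by side within levels. From an average log2 CPM of 0 to 2, 41.05% of antisense genes, 30.79% of long noncoding genes and 25.13% of protein-coding genes were lower, and 6.84%, 8.13% and 13.49% were higher. From 2 to 4, the lower shares were 48.04%, 38.44% and 35.56%, so long noncoding and protein-coding genes were close. Of the 77 long noncoding genes from 4 to 6, 27.27% were lower and 32.47% higher, against 30.69% and 32.95% of protein-coding genes. Over 6, 20% of 20 long noncoding genes were lower and 45% higher, against 24.86% and 46.8% of protein-coding genes. PROX1-AS1 (chromosome 1, 213817751 to 213988508) fell from 8.35, 7.64 and 7.54 to 2.35, 2.68 and 1.995 CPM. The sources used here do not give the strand setting behind the counts, and without it reads of an antisense gene and its partner cannot be told apart. Nuclear-retained noncoding RNAs counted 3 lower and 0 higher of 7 (edgeR adjusted p under 0.05). NEAT1, the scaffold of paraspeckles (chromosome 11, 65422774 to 65445540), fell from 128, 135 and 141 to 52.6, 57.9 and 59.2 CPM with siNT at 44.3, 52.5 and 51.5, and MALAT1 fell 1.75-fold.

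**Figure D5:**
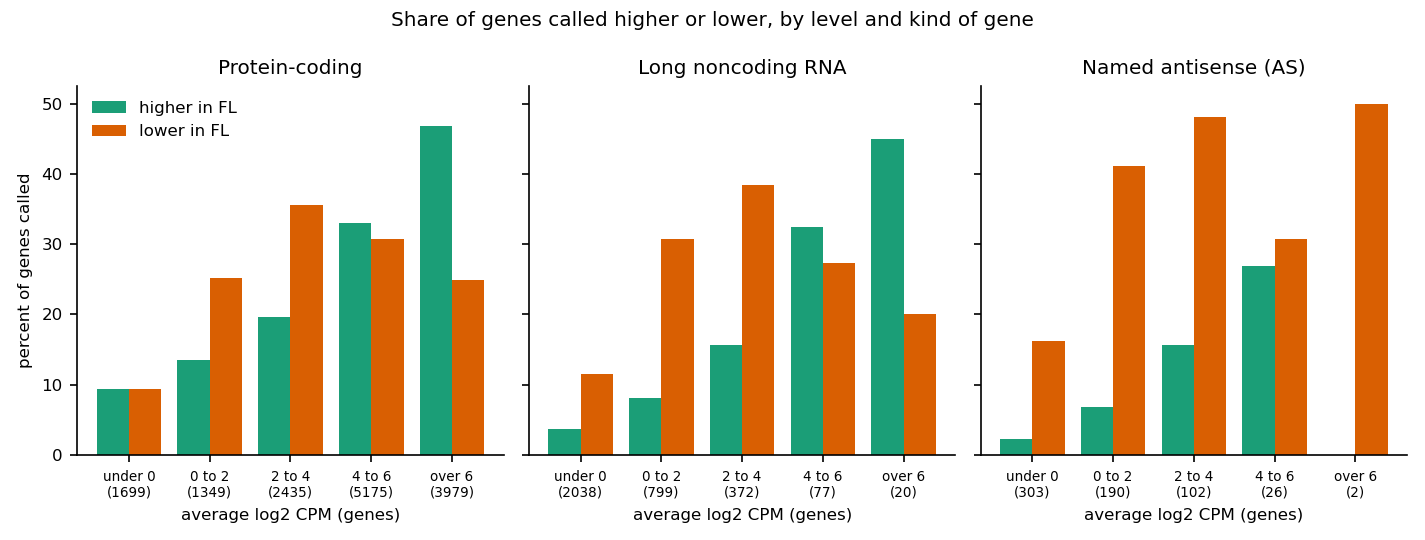
Bars give the percent of genes called higher (green) or lower (orange) in FL than in siTAF5 by average log2 CPM, for protein-coding, long noncoding and named antisense genes, with the number of genes under each bin. Lower calls exceed higher calls in noncoding genes up to an average of 4, and the antisense bin over 6 holds only 2 genes.

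Gene length and named classes of protein-coding genes were also set side by side. Of the 3659 protein-coding genes with a genomic span above 83.46 kb, 814 were higher and 1212 lower, whereas of the 3660 with a span up to 13.34 kb, 1137 were higher and 821 lower. Zinc finger genes named ZNF counted 137 higher and 71 lower of 465, DEAD- and DEAH-box helicases 35 and 9 of 57, and RNA-binding motif proteins 25 and 3 of 44. For ZNF genes the higher share of 29.46% was near the 29.96% of all protein-coding genes, and the lower share was 15.27% against 26.92%. The higher and lower shares were 61.4% and 15.79% for the helicases, and 56.82% and 6.818% for the RNA-binding motif proteins. Blood cell markers, of which 7 of 9 in the table were under 1 CPM in all 6 libraries and CD3E was at 0 counts in all 6, summed to 13.2 to 13.7 CPM in siTAF5 and 17.9 to 18.9 in FL. The called members were HBA1, up 1.49-fold, and CD68, up 1.31-fold. Markers of liver, muscle and keratinocytes summed to 0.597 to 0.745 CPM in siTAF5 and 0.626 to 0.854 in FL. The part of these markers in other results was not tested.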

How the data were processed

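Polyadenylated RNA of 12 HEK293 Flp-In samples was sequenced, and the authors deposited 1 table of estimated counts per gene, not normalised and not pooled (46.52% of entries are not whole). Per the submitters' processing notes, cutadapt 1.18, STAR 2.7.0f, DESeq2 and Partek 10.0.23.0531 were used with hg38. The sources used here do not give the counting tool, annotation and strand setting. The estimated counts, which had been planned for as counts, were rounded. Genes were filtered with filterByExpr (minimum count 10), scaled by TMM and tested with edgeR 4.0.16 (quasi-likelihood, all 12 libraries in the fit, Benjamini-Hochberg adjusted p under 0.05) in R 4.3.3. Fold changes are from that fit, the SE is the log2 change divided by the root of F, and CPM values are scaled by effective library size. DESeq2 1.42.0, limma 3.58.1 voom, other scalings, other filters, a replicate block and each left-out replicate were alternatives. Data with the sizes of the 12 libraries were also simulated for 19184 genes. Of the changes set in FL, 66% of 1.2-fold, 65.31% of 1.5-fold, 72.92% of 2-fold and 93.88% of 4-fold ones were recovered. Of the simulated calls, 5.195% were false. Only 48 to 50 genes per size were changed, far fewer than were called in the real data, so these shares may not hold there.

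The members and gene lists were chosen with earlier results of these data known. Genes were named by rule: TAF5, every TFIID subunit, the 15 largest log2 changes each way among called, non-overlapping genes with average log2 CPM of at least 2, the 8 largest CPM differences each way, and up to 5 members per list with the smallest adjusted p. Named outside it, after their values were seen, were H2AC20, ASNS, IARS1, ATF3, TRIB3, CEBPG, DDIT4, NAT10, NOP10, UTP20, MT-ND4, PCP4L1, TNF and XRCC6P1. Of the gene symbols listed, 1598 of 1607 were in the table. Promoter windows are from RefSeq (GRCh38.p14), of which 12590 matched tested genes by symbol.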

Additional observations from a re-analysis of the deposited data

How the results depend on the processing

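The counts of higher and lower genes stayed within 1.5 times the reported ones under all 15 alternatives. Library totals gave 3748 higher and 5788 lower (39.3% of calls higher, against 50.07%), and moved the median of all genes from -0.01 to -0.05. Leaving out 1 replicate gave 4361 to 4495 higher and 4214 to 4351 lower. With replicate number as a block, 4818 were higher and 4784 lower. Same-numbered siTAF5 and FL libraries correlated at 0.20, 0.02 and 0.20 in their deviations from group means. Replicates 1 and 3 correlated best with their own number (-0.22 and -0.16 between 1 and 3), and replicate 2 of neither group did. The main fit did not take the numbers as pairs, and whether same-numbered libraries belong together is not settled by this check.

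For named genes, 4035 values kept direction and side of the threshold, 18 (8 genes) lost the call, 16 (4 genes) gained it and 9 (5 genes) turned sign. None of the 5 had been called. With library totals NORAD was -0.0104, TAF10 -0.00578, TAF15 -0.0186 and TBP -0.021. CD14 was 0.0419 by voom. Over the left-out replicates CD14 ran from -0.229 to 0.424 and TAF15 from -0.0102 to 0.0529. Among list medians, 574 values kept direction and size, 105 moved and 26 (9 lists) turned sign. With library totals the TFIID subunits were -0.0122, cadherins -0.0394, YAP-TEAD targets -0.0276, BMP and ID genes -0.0451 and HEK293 markers -0.0122. With upper-quartile factors cadherins were -0.00816 and BMP genes -0.0141. With no filter they were -0.00701 and -0.0126, and with a minimum count of 50 they were -0.0633 and -0.00405, and keratin and junction genes -0.0323. With 1 replicate left out, medians ran from -0.0104 to 0.00903 for lysosome genes, -0.0437 to 0.00362 for AP-1 genes, -0.00431 to 0.0633 for keratin and junction genes, -0.028 to 0.0584 for cadherins and -0.00372 to 0.0598 for YAP-TEAD targets. They ran from -0.0186 to 0.0239 for BMP genes, -0.152 to 0.0228 for nuclear-retained RNAs and -0.0255 to 0.146 for HEK293 markers. The cause was not tested.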
